A study of Homo sapiens with 27 samples.

Results

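G sites preceded by A are the positions at which O6-MeG-seq marked a guanine on 1 DNA strand and the next base on the 5′ side of that strand is adenine. They were chosen as sites on the 22 autosomes with the base G, with a score of 30 or more in a library treated with temozolomide (TMZ), and with A read as the 5′ neighbour. The neighbouring base was read from the solvent-control libraries, wherever any of them listed a site at the neighbouring position, and was complemented where that site lay on the other strand. This gave 355355 A-preceded sites among 857548 G sites with a known 5′ base, or 41.4%. They lay at 327873 distinct positions and strands, because a site can be marked in more than 1 library. The known sites were 1.62% of all 52922840 autosomal G sites with that score in the 15 TMZ libraries. A further 308824 of the known sites were preceded by G, 158202 by T and 35167 by C.

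The libraries came from LN-229, a human glioblastoma cell line, in a form that carries a transfected copy of the repair gene MGMT and in the matching control of the transfection, called WT. Cells received 1 mM TMZ, or 1% DMSO as solvent, given either 1 time or 3 times at 4 h intervals, with DNA extraction 24 h after exposure began. Genotype, agent and number of exposures made 8 cell groups of 3 libraries each, which the labels call biological replicates. A group of 3 libraries came from naked DNA, purified before it met TMZ. Naked DNA replicate 1 was from LN-229 cells without transfection, replicate 2 from WT cells and replicate 3 from MGMT-transfected cells. The MGMT-transfected cells are a line made to carry the gene and stand for no tumour with MGMT of its own.

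Temozolomide is a prodrug that releases a methylating species in water and leaves, among other products, O6-methylguanine. This base can pair with thymine in replication, so that G-to-A changes arise on the marked strand and C-to-T changes opposite to it. MGMT is a suicide enzyme that takes the methyl group onto its own cysteine and restores guanine, and its absence is linked to response to temozolomide in glioblastoma. Methylating agents of this type are known to favour guanines that follow a purine, A or G, on the same strand. O6-MeG-seq enriches DNA fragments that hold the lesion with an antibody and reads the position at which a polymerase stops. Each deposited list has a chromosome, a position, a strand, a base and a whole-number score from 0 to 42, and names a position and strand no more than 1 time. The values below are therefore shares of distinct sites and not amounts of lesion per site.

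The sequences below show A-preceded positions marked in the most libraries within the RefSeq promoter windows, which run from 250 bases before to 50 bases after the annotated gene start in GRCh38.p14. Here the preceding A was read from the RefSeq sequence, so a position need not have a neighbour listed by a solvent control. Among these positions, 13 were marked in 5 of the 15 TMZ libraries, the highest number reached. The 6 shown come first when ties are ordered by the number of naked DNA libraries, then by chromosome and position, with at most 1 per gene and at least 14 bases of the window on each side. Capitals mark the preceding A and the marked G, and each 29-base sequence runs 5′ to 3′ on the strand of the mark.
LINC00582: aatgcagatatttAGtctctgctcactcc
LOC105378250: ccacagagcaagaAGtggctctggggctc
RNF150: tccacctagattaAGtcgccgattgaggt
PLEKHJ1: cgccacgcagcggAGgcgggcggcatggc
ZGPAT: gagagggacgaggAGtcgggaatggcccc
GPN2: tagagaaattccgAGagcgattttcccgc

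The window in front of LINC00582, a long non-coding RNA gene, is chr1:231612193-231612221 on the plus strand, and its marked G lies 117 bases upstream of the start. It was marked in all 3 naked DNA libraries and in 2 cell libraries. LOC105378250, an uncharacterised locus, has its window at chr12:53739439-53739467 on the minus strand, 141 bases upstream, and was also marked in 3 naked DNA and 2 cell libraries. These are the positions among the 6 that all naked DNA libraries marked.

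The window of RNF150, which encodes a RING finger protein, is chr4:141133614-141133642 on the minus strand, 159 bases upstream of the start. That of PLEKHJ1, which encodes a pleckstrin homology domain protein, is chr19:2236387-2236415 on the minus strand, 72 bases upstream. That of ZGPAT, a zinc finger transcriptional repressor, is chr20:63707213-63707241 on the minus strand, 215 bases upstream. Each of these 3 was marked in 2 naked DNA and 3 cell libraries, and for PLEKHJ1 the cell libraries were the 3 of WT cells after 3 exposures. GPN2, a GTPase gene, has its window at chr1:26890426-26890454 on the minus strand, 157 bases upstream, and was marked in 1 naked DNA and 4 cell libraries. No solvent-control library marked any of the 6 positions. The base after the marked G was T in 4 windows, G in 1 and A in 1.

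The libraries held between 1347019 and 15745885 listed sites. Between 11644 and 137787 G sites per TMZ library had a known 5′ base, so the Wilson 95% interval of a share in 1 library was at most 0.887 percentage points on either side. That interval covers counting error only, since a listed site is not shown to be an independent molecule. Non-G sites shared between libraries put the 27 libraries into 5 sets, within which up to 289 times the median sharing was seen, against at most 1.398 times between sets. In set 1, naked DNA replicate 1 stood with the 4 single-exposure cell libraries numbered 1, and the other 2 naked DNA libraries formed a set of their own. The labels do not say what the sets are, and the main differences are also given within them, or with the set as a block, meaning that labels were exchanged only within a set. Same-numbered MGMT and WT libraries lay in 1 set, as did same-numbered TMZ and solvent libraries except replicate 3 after 3 exposures. Same-numbered TMZ libraries of 1 and 3 exposures lay in different sets except for replicate 3, and no tally of those pairs is given. In the library labelled solvent control of MGMT cells, 1 exposure, replicate 1, G made up 43.7% of autosomal sites with the minimum score, against 37.4% in the same-numbered TMZ library. The other 11 solvent controls had 19.0% to 27.8%, and comparisons of TMZ with solvent are given with and without this library.

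The level of the A-preceded share depended on which libraries named the neighbour. The marks of the 12 solvent controls were 26.8% A, 20.9% G, 32.9% T and 19.5% C, whereas those of the 3 naked DNA libraries were 68.5% G and 16.7% A. With the solvent marks as reference the A-preceded share in TMZ-treated cells averaged 40.7%, and with the naked DNA marks as reference it averaged 25.4%. In the promoter windows, whose neighbours came from the RefSeq sequence and from no mark at all, it averaged 31.5%, where 25.3% of all G positions are preceded by A. A share is therefore compared only with shares read from the same reference. Among the 10534217 bases that could be compared between libraries, 0 differed, and 0 of 519031 differed from the RefSeq promoter sequence. This checks the handling of positions and strands, and not the level of a share.

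In naked DNA, where TMZ met DNA without chromatin or repair, the A-preceded share was 40.05%, 42.9% and 42.9% in replicates 1, 2 and 3. In WT cells it was 40.5%, 39.5% and 42.3% after 1 exposure and 41.9%, 41.9% and 42.3% after 3 exposures. MGMT cells had 39.4%, 37.0% and 38.1% after 1 exposure. After 3 exposures they had 41.3%, 41.04% and 42.8%. The 3 MGMT libraries after 1 exposure were below all naked DNA libraries, and the other groups overlapped with naked DNA.

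**Figure D1:**
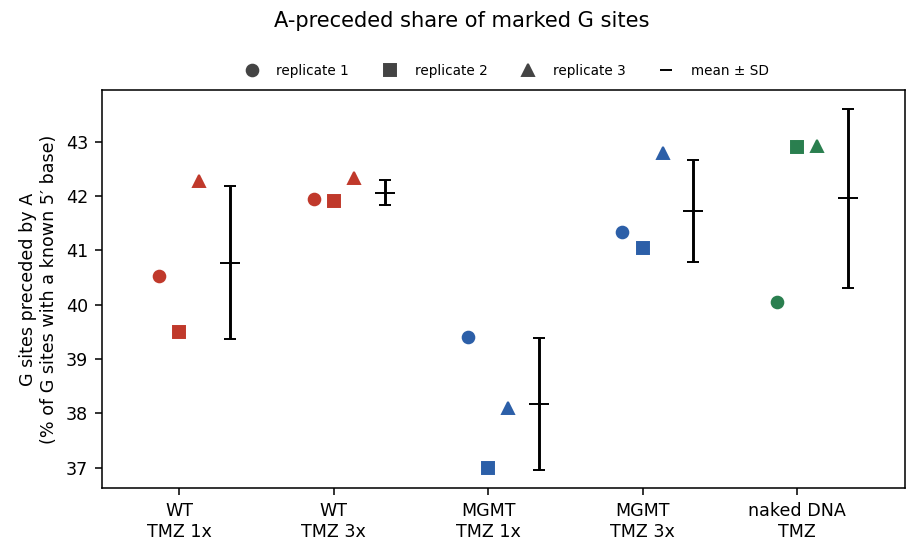
Share of G sites preceded by A among G sites with a known 5′ base, in percent, for each TMZ library by group; points are libraries, bars the mean and SD of 3 libraries, and the axis does not start at 0. MGMT cells after 1 exposure lie between 37.0% and 39.4%, below the 40.05% to 42.9% of naked DNA.

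The 12 cell libraries averaged 40.7% ± 1.83 (SD, n = 12) and the naked DNA libraries 41.96% ± 1.65 (SD, n = 3). The difference of -1.28 percentage points was not called (exact two-sided permutation test, p = 0.295, adjusted p = 0.314 over 16 tests of the 4 possible 5′ bases in 4 comparisons). Labels were exchanged over all 15 libraries, so that differences between the cell groups count as spread in this test. None of the 4 bases was called between cells and naked DNA at an adjusted p of 0.05 (0%), or at an unadjusted exact p under 0.05 (0 bases). Within set 1, the 2 TMZ cell libraries minus the 1 naked DNA library gave -0.0789 points. Naked DNA replicates 2 and 3 formed a set with no cell library, so for them naked DNA cannot be told apart from the set. Leaving out a replicate number moved the difference from -2.29 points without replicate 1 to -0.396 points without replicate 2. By group, the difference from naked DNA was -3.79 points for MGMT cells after 1 exposure (exact permutation p = 0.1, the smallest that 3 against 3 libraries allow) and -1.19 for WT cells after 1 exposure (exact p = 0.3). After 3 exposures it was -0.228 for MGMT cells (exact p = 0.8) and 0.104 for WT cells (exact p = 1). Read from the RefSeq sequence of promoters, the difference between cells and naked DNA was 1.119 points, with cells higher (exact p = 0.143).

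MGMT cells and WT cells under TMZ were compared to see whether the repair enzyme goes with a different share of A-preceded sites. The MGMT cells had a mean of 39.9% ± 2.18 (SD, n = 6), and the mean of WT cells was 41.4% ± 1.15 (SD, n = 6). MGMT minus WT, at -1.47 points, had an exact permutation p of 0.045 with labels exchanged within the number of exposures, and an adjusted p of 0.072. Of the 4 bases, 25% were called in this comparison, and that base was C, whose share was 0.849 points higher in MGMT cells (exact permutation test, adjusted p = 0.0343). The A-preceded share was lower in the MGMT library in 5 of 6 same-numbered pairs, with differences from -4.18 to 0.475 points. Within sets 1, 2 and 3 the differences were -1.11, -1.55 and -1.53 points, and with the set as a block the exact p was 0.0625.

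The G share of all autosomal sites with the minimum score moved with genotype. It was 37.4%, 32.6% and 44.0% in MGMT cells after 1 exposure, against 44.8%, 41.9% and 52.6% in WT cells, and after 3 exposures 52.6%, 61.7% and 60.4% against 59.7%, 64.1% and 62.6%. It was lower in the MGMT library in each same-numbered pair, and its part in the difference was not tested. The genotype difference was smaller with the naked DNA marks as reference (-0.208 points, exact p = 0.595). After subtraction of the solvent control with that reference it was -0.817 points (exact p = 0.28), without MGMT cells after 1 exposure, replicate 1, which gave no value. In promoters it was -1.21 points (exact p = 0.05, adjusted p = 0.223 over 26 tests of measures in promoters and genes), from means of 30.9% in MGMT and 32.1% in WT cells, with pairs from -2.89 to 0.764. Whether the genotype difference read from the solvent marks differed between 1 and 3 exposures was tested directly, on differences of same-numbered libraries. The difference was 2.27 points less negative after 3 exposures, at the smallest exact p of that test (0.1, adjusted p = 0.5 over 5 tests).

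More exposures went with a higher A-preceded share when the neighbours came from the solvent marks. Libraries after 1 exposure averaged 39.5% ± 1.85 (SD, n = 6) and libraries after 3 exposures 41.9% ± 0.639 (SD, n = 6). The difference of 2.43 points passed the test (exact permutation, p = 0.015, adjusted p = 0.0343). All 4 bases were called in this comparison, which is 100%, so A was not apart from the others: the G-preceded share was 3.86 points higher, and those of T and C changed by -4.92 and -1.36 points. The A-preceded share was higher after 3 exposures by 3.40 points within set 2 and 1.83 points within set 3. With the set as a block the difference of 2.61 points was not called (exact p = 0.0556, where 0.0278 is the smallest possible). The G share of sites was 32.6% to 52.6% after 1 exposure and 52.6% to 64.1% after 3. Its part in the result was not tested. With the naked DNA marks as reference the difference was -0.499 points, and in promoters it was 0.862 points (exact p = 0.155). After subtraction of the solvent control with the naked DNA reference it was -0.434 points (exact p = 0.58), again without the MGMT library that gave no value.

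G is also marked in cells that received solvent alone, and these libraries served as the controls for TMZ. Solvent controls cannot be read against themselves, so the naked DNA marks were the reference here. The A-preceded share was lowest at 24.6%, with a median of 25.3% and a highest value of 26.9%, in the 12 TMZ cell libraries. In the 12 solvent controls the lowest was 23.4%, the median 24.9% and the highest 25.7%. The groups overlapped, and the difference of means was 0.617 points (exact permutation p = 0.0297, adjusted p = 0.0529). In this comparison 75% of the 4 bases were called: the G-preceded share was 13.3 points higher under TMZ, and those of T and C changed by -10.5 and -3.41 points (exact permutation test, adjusted p = 0.0002 for each), or by 14.6, -11.4 and -3.67 points without the MGMT solvent control that stood apart. The A-preceded share was higher under TMZ in 9 of 12 pairs, by 2.69 points within set 1 and by 0.314 and 0.348 points within sets 2 and 3. The value moved with the reference. It was 12.2 points with reference sites on the opposite strand only (exact p = 2.5e-05), -0.770 points with those on the same strand only (exact p = 0.0577) and 1.89 points with no minimum score (exact p = 1.25e-05). It was 0.468 points without the MGMT solvent control that stood apart (exact p = 0.0737) and 0.139 points without replicate 1 of every group (exact p = 0.520), while with the set as a block it was 0.803 points (exact p = 0.0226).

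Each library could also be read against solvent controls of the other replicate numbers, which lets TMZ and solvent libraries share a reference of solvent marks. The A-preceded share then averaged 40.5% ± 2.02 (SD, n = 12) under TMZ and 32.2% ± 2.26 (SD, n = 12) under solvent, a difference of 8.35 points (exact permutation p = 3.75e-05) that was 8.995 points without the MGMT solvent control that stood apart. Within sets 1, 2 and 3 it was 4.07, 8.82 and 9.54 points, and with the set as a block 8.03 points (exact p = 0.000434). Solvent controls of other replicate numbers can still belong to the set of the library read, so this reference is not free of the sites that sets share.

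The promoter windows gave the one reading in which the sequence was known at every position. The 33725 windows lie on 21 autosomes, since promoters of chromosome 8 were not analysed here, and held 5187252 G positions, of which 25.3% are preceded by A, 33.1% by G, 22.7% by T and 18.9% by C. The A-preceded share of marked promoter G sites was 29.4% to 33.3% in TMZ cells, with a median of 31.7%. In naked DNA it was 30.1%, 30.9% and 30.2%, and in solvent controls 24.1% to 29.7% with a median of 26.03%. TMZ cells and solvent controls overlapped by a small margin, from 29.4% to 29.7%, and the highest solvent library was the MGMT control that stood apart. The other bases moved as well. After G the share was 40.7% to 49.4% in TMZ cells and 28.1% to 46.6% in solvent controls. After T it was 9.62% to 16.2% against 12.5% to 27.7%, and after C 8.37% to 13.1% against 11.2% to 20.2%. These shares after G, T and C were not tested.

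The A-preceded share was 4.91 points higher under TMZ than under solvent (exact permutation, p = 2.5e-05), and higher in 11 of 12 pairs, with differences from -0.252 to 8.19 points. It was 1.29, 5.48 and 5.05 points higher within sets 1, 2 and 3. Without the MGMT solvent control that stood apart the difference was 5.29 points, and with the set as a block it was 4.47 points (exact p = 0.000868). It was not shown to depend on genotype (-0.0619 points between MGMT and WT, exact p = 0.975) or on the number of exposures (1.399 points, exact p = 0.345). Promoter G sites numbered 3843 to 50084 per TMZ library and 809 to 2782 per solvent control, so that the 95% Wilson interval of a share was at most 1.45 and 3.11 points on either side.

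Divided by the number of positions available, the rate of marks at A-preceded promoter positions was above the rate over all promoter G positions in 15 of 15 TMZ libraries and in 10 of 12 solvent controls. This rate ratio was 1.16 at the lowest, 1.25 at the median and 1.32 at the highest in TMZ cells. In naked DNA it was 1.19, 1.22 and 1.19. In solvent controls it was 0.955 at the lowest, 1.03 at the median and 1.17 at the highest. Naked DNA lay within the range of TMZ cells before any subtraction of solvent controls, and the solvent controls lay lower, with 1 library overlapping.

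This rate ratio is the A-preceded promoter share divided by the 25.3% of positions available, so that the tests of the share given above are also its tests and it adds no further evidence. The mean ratio was 0.194 higher in TMZ cells than in solvent controls, or 0.209 without the control that stood apart, and 0.0442 higher than in naked DNA. It was 1.22 ± 0.04996 in MGMT and 1.27 ± 0.0267 in WT cells under TMZ (SD, n = 6 each). After subtraction of the same-numbered solvent control, scaled to the sites at other bases, MGMT minus WT was -0.0302 (exact p = 0.255) over 5 pairs. MGMT cells after 1 exposure, replicate 1, gave no value there, because its scaled solvent control held more G sites than the TMZ library. In the other TMZ cell libraries the subtracted ratio ran from 1.23 to 1.36, above the 1.19, 1.22 and 1.19 of naked DNA. Naked DNA has no solvent control to subtract, so these values are not like for like, and their difference was not tested.

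Guanines after A and after G, both purines, were set against each other in the same windows. The rate was lower after A than after G in 15 of 15 TMZ libraries, and higher after A in 10 of 12 solvent controls. The log2 ratio of both rates averaged -0.18 ± 0.07 (SD, n = 12) in TMZ cells. It averaged -0.30 ± 0.03 in the 3 naked DNA libraries and 0.11 ± 0.16 in the 12 solvent controls. The values in naked DNA were -0.27, -0.29 and -0.33, against -0.30 to -0.05 in TMZ cells. The difference between TMZ and solvent was -0.29 (exact permutation p = 0.0001125, adjusted p = 0.00146 over the same 26 tests) and -0.32 without the control that stood apart, whose own value was -0.26. Within sets 1, 2 and 3 it was -0.05, -0.24 and -0.45. TMZ cells lay 0.12 above naked DNA, with an exact p of 0.0176 and an adjusted p of 0.114. Genotype (-0.01) and number of exposures (-0.06) showed no called difference (exact p = 0.725 and 0.18).

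**Figure D2:**
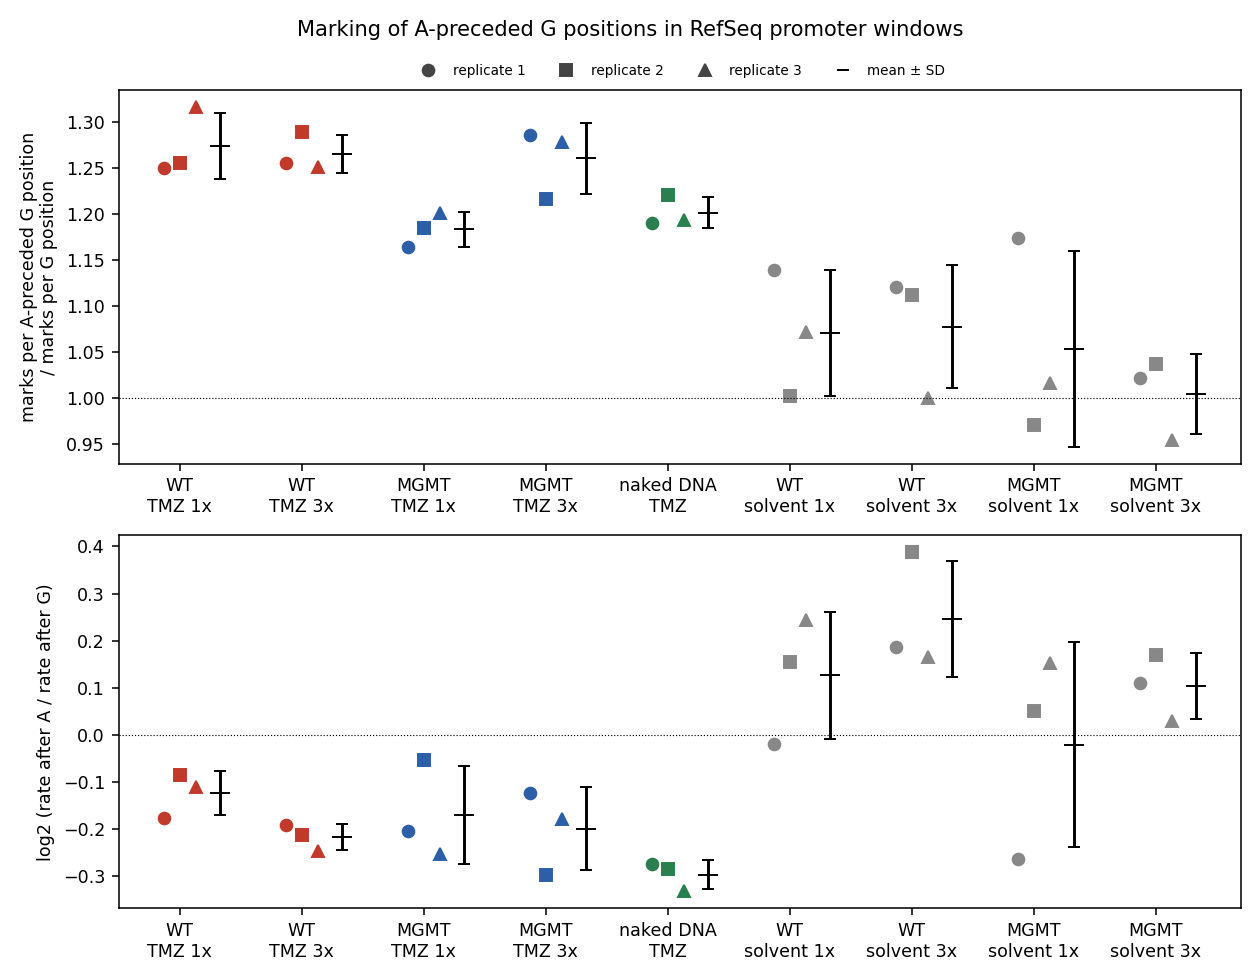
Promoter windows only. Top, marks per A-preceded G position divided by marks per G position; bottom, log2 of the rate after A over the rate after G; points are libraries, bars the mean and SD of 3 libraries, and the dotted lines mark equal rates. TMZ cells and naked DNA lie above 1 at the top, at 1.16 to 1.32, and below 0 at the bottom in all 15 libraries.

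The base after the guanine was known together with the base before it at 23442 sites, 8977 of them A-preceded, or 381 to 3512 sites per library before the split by base. The A-preceded share was 44.3% ± 5.44 among sites followed by A in TMZ cells and 46.0% ± 1.16 in naked DNA (SD, n = 12 and 3). It was 36.0% ± 4.83 and 37.4% ± 1.30 among sites followed by C, and 35.3% ± 4.15 and 36.3% ± 1.10 among sites followed by G. Among sites followed by T it was 33.7% ± 5.34 and 36.1% ± 4.14. The share was highest before a following A in both kinds of DNA, and none of the 16 contexts was called between them (0%, exact permutation tests with adjusted p of 0.69 to 0.74 for the 4 A-preceded contexts). At an unadjusted p under 0.05, 1 of 16 was.

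The trinucleotide AGG was called between genotypes in the main setting. Its share among sites followed by G was 26.9% to 37.7% in MGMT cells, with a median of 33.9%, and 34.9% to 40.1% in WT cells, with a median of 38.3%. The difference of -5.15 points had the smallest p that the exact permutation test allows (0.005, adjusted p = 0.04), and MGMT was lower in 6 of 6 pairs. It was 1 of 2 contexts called among 16, or 12.5%. AGA and AGC had differences of -6.02 and -5.96 points (exact permutation, adjusted p = 0.1 for each), and AGT of 0.242. The AGG call was kept with reference sites scoring 30 or more (-5.36 points, exact permutation, adjusted p = 0.04). It was lost, with the same direction, under the other settings, among them promoters (-0.843 points), same-strand reference sites (-2.53), no minimum score (-3.19) and the set as a block (-5.67, exact permutation, adjusted p = 0.0667). With the set as a block the smallest possible exact p was 0.0208, so 1 context alone could not be called after adjustment over 16. Leaving out replicate 1, 2 or 3 gave -3.72, -4.77 and -6.95 points, with a smallest possible p of 0.0556 that allows no call.

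After 3 exposures AGA was 5.96 points higher and AGG 4.37 points higher than after 1 exposure (exact permutation, adjusted p = 0.048 for each). They were 2 of 5 called contexts among 16, or 31.2%. Leaving out replicate 1, 2 or 3 gave 6.99, 5.86 and 5.03 points for AGA and 4.91, 3.801 and 4.40 points for AGG, where no call was possible. Neither call held under the other alternatives, which gave 1.26 points for AGA and 0.534 for AGG in promoters and 4.84 and 4.22 with the set as a block (exact permutation, adjusted p = 0.167 and 0.0635). With that block the smallest possible exact p was 0.0278, so 1 context alone could not be called after adjustment over 16. The mean shares were 47.2% and 41.3% for AGA and 37.5% and 33.1% for AGG after 3 and 1 exposures.

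Read the other way, A-preceded sites in TMZ cells were followed by A in 28.9% ± 3.70, by G in 25.2% ± 2.66, by T in 24.4% ± 4.53 and by C in 21.4% ± 2.84 (SD, n = 12). In naked DNA the same shares were 28.6%, 25.2%, 24.6% and 21.7%. None of 16 such values was called between cells and naked DNA, and none between genotypes (0% in each, by exact permutation tests), nor was any at an unadjusted p under 0.05 (0 in each).

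In promoters the share could be read in the same way and, since the sequence is known, also as a rate per position. The A-preceded share in TMZ cells was 34.8% ± 1.121 before a following A, 29.3% ± 1.81 before C, 31.1% ± 1.22 before G and 33.1% ± 2.20 before T (SD, n = 12). Per position the order was another, and AGA, with the highest of these shares, had the lowest rate. AGG had a rate ratio of 1.36 at the lowest, 1.46 at the median and 1.57 at the highest in TMZ cells, and of 1.44, 1.504 and 1.46 in naked DNA. In solvent controls it ran from 1.11 to 1.46 with a median of 1.23. AGA lay near the average of all promoter G positions in each kind of library, at 0.942 ± 0.0671 in TMZ cells, 0.969 ± 0.0306 in naked DNA and 0.952 ± 0.118 in solvent controls (SD, n = 12, 3 and 12).

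AGC was the A-preceded context that stood furthest apart between TMZ and solvent. Its rate ratio in TMZ cells was 1.08 at the lowest, 1.29 at the median and 1.46 at the highest. In naked DNA it was 1.11, 1.13 and 1.11. In solvent controls it was 0.584 at the lowest, 0.824 at the median and 1.10 at the highest, from 36 to 162 marks per library. Only the upper end of the solvent range reached the lower end of the TMZ range. AGT was intermediate, at 1.22 ± 0.138 in TMZ cells, 1.16 ± 0.0345 in naked DNA and 1.14 ± 0.123 in solvent controls (SD, n = 12, 3 and 12).

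**Figure D3:**
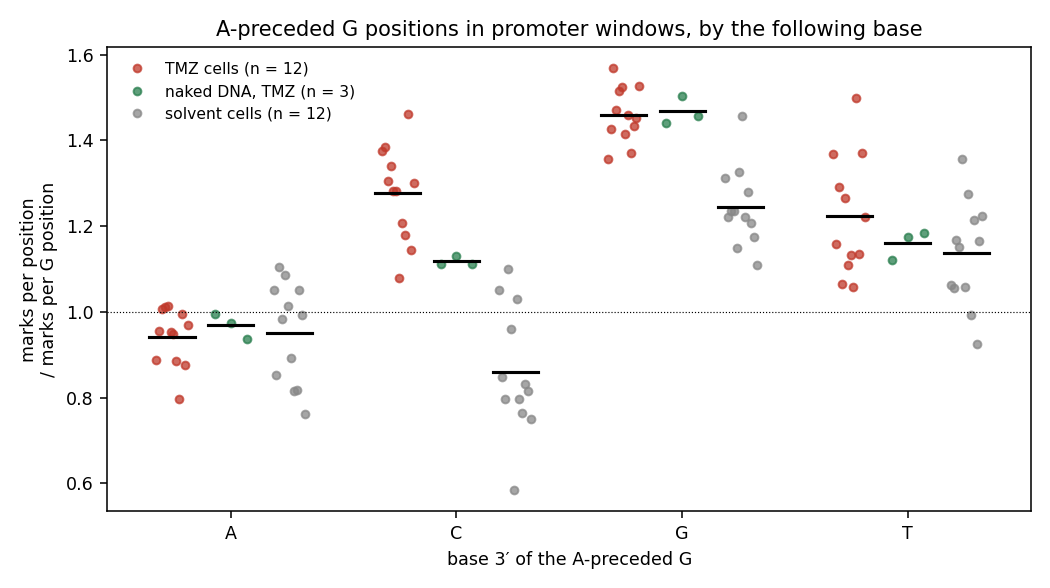
Marks per promoter position of the contexts AGA, AGC, AGG and AGT divided by marks per promoter G position, by the base on the 3′ side; points are libraries and lines are means. AGC averages 1.28 in TMZ cells, 1.118 in naked DNA and 0.861 in solvent controls, while AGA averages 0.942, 0.969 and 0.952.

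On the log2 scale the rate ratio of AGC was 0.59 higher under TMZ than under solvent, in 12 of 12 pairs (exact permutation, p = 1.25e-05, the smallest the test allows, adjusted p = 8e-05). That of AGG was 0.23 higher, in 11 of 12 pairs (exact permutation, adjusted p = 8e-05). AGT was 0.10 higher (adjusted p = 0.160) and AGA changed by -0.01 (adjusted p = 0.872), neither of them called by the exact test. Of the 16 contexts 14 were called, or 87.5%, so that AGA and AGT were the contexts without a call. With G in place of the preceding A the differences were larger: 0.29 for GGA, 0.89 for GGC, 0.43 for GGG and 0.52 for GGT. Without the solvent control that stood apart the differences of AGC, AGG and AGT were 0.62, 0.25 and 0.12, and that of AGA was 0.002. With the set as a block AGC was 0.52 higher (exact permutation, p = 0.000434) and AGG 0.22 higher (exact p = 0.000868).

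AGC was 0.19 higher in TMZ cells than in naked DNA on the log2 scale, with an exact permutation p of 0.0286 and an adjusted p of 0.290, and 0 of 16 contexts were called (0%, against 2 at an unadjusted p under 0.05). None of 16 was called between genotypes or between 3 and 1 exposures (0% in each, exact permutation tests, with 3 and 6 at an unadjusted p under 0.05). A following C was also read after the other purine, side by side. Relative to all A-preceded positions, the rate of AGC was 1.03 in TMZ cells, 0.931 in naked DNA and 0.815 in solvent controls. Relative to all G-preceded positions, the rate of a G followed by C was 1.05, 0.942 and 0.824.

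The base 2 positions upstream of the marked G was read in the same windows. Relative to all A-preceded positions, those with G in that place had a rate of 1.03 ± 0.0555 (SD, n = 12) in TMZ cells. The rate was 1.07 ± 0.0260 in the 3 naked DNA libraries and 0.948 ± 0.0779 in the 12 solvent controls. TMZ minus solvent, at 0.0836, was called (exact permutation p = 0.00331, adjusted p = 0.0287) and was positive in 11 of 12 pairs, and it was 0.0926 without the control that stood apart and 0.0759 with the set as a block (exact p = 0.00217). With A, C or T in that place the differences were -0.00697, -0.0343 and -0.114, with exact permutation p of 0.800, 0.212 and 0.0523. Between TMZ cells and naked DNA, or between genotypes, no base in that place was called.

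Across the autosomes the A-preceded share, pooled over the 15 TMZ libraries, ran from 36.4% on chromosome 19 to 43.1% on chromosome 13. Chromosomes 22, 16 and 17 followed chromosome 19 from below, at 37.0%, 37.9% and 38.1%. These 4 were the lowest in the pooled cell libraries and in the pooled naked DNA libraries alike. Chromosome 19 had 36.4% in cells and 36.3% in naked DNA, and chromosome 13 had 43.04% and 43.06%. These pooled values have no replicate error and were not tested. They were not divided by positions available, so they also describe where A-before-G occurs on each chromosome.

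**Figure D4:**
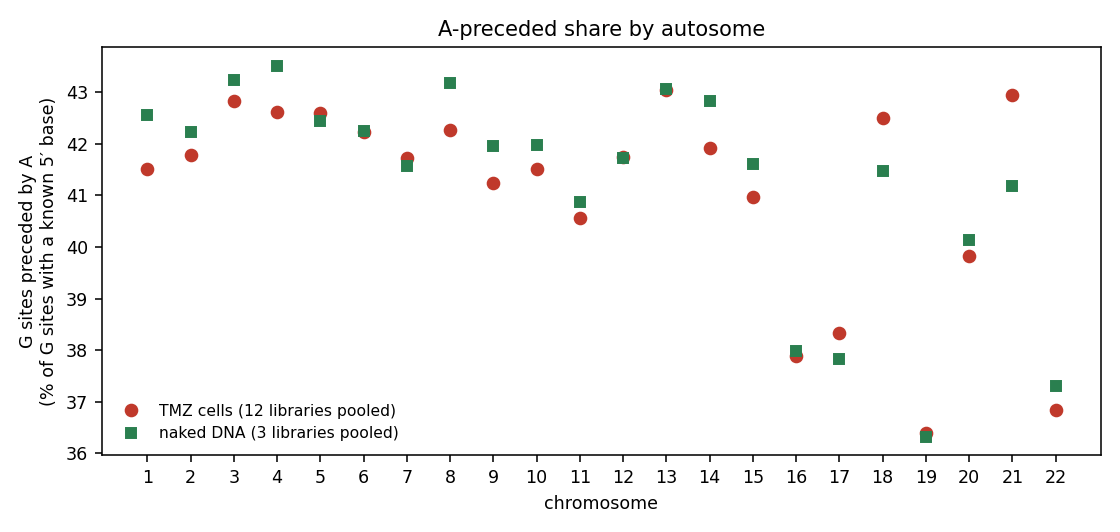
A-preceded share of G sites with a known 5′ base, in percent, by autosome, for 12 TMZ cell libraries pooled and 3 naked DNA libraries pooled; the axis does not start at 0. Chromosomes 16, 17, 19 and 22 are lowest in both, and chromosome 19 has 36.4% over all 15 libraries. Shares are not divided by the A-before-G positions available.

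Of the A-preceded sites, 45.2% to 47.6% per TMZ library lay within protein-coding genes of the RefSeq table. For sites after other bases it was 45.4% to 49.7%, and the A-preceded share was lower by a margin that ran from -2.14 to -0.002 points over the 15 libraries, so that it was next to nothing in some. Within genes whose strand is known, 45.9% to 48.9% of A-preceded sites lay on the transcribed strand, against 41.9% to 46.1% for the other bases, a margin of 1.89 to 4.198 points. Both shares describe where A-before-G occurs as well as where it is marked, since the known sites were not divided by positions available. The share in genes differed between TMZ cells and naked DNA by -0.285 points (exact permutation p = 0.563) and between MGMT and WT by 0.0893 points (exact p = 0.82). For the transcribed strand the differences were -0.773 points (exact p = 0.143) and -0.246 points (exact p = 0.445).

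A-preceded sites were seldom marked again in a further library. Of the 327873 distinct sites, 24333 (7.42%) were marked in at least 2 of the 15 TMZ libraries, 2555 (0.779%) in at least 3, and the highest number was 9. All 3 naked DNA libraries marked 50 of them. The share marked at least 2 times was 9.09% for G-preceded sites, 3.56% for T-preceded and 3.28% for C-preceded sites. In promoters the preceding A was read from the RefSeq sequence at every G, so those positions are not a subset of the 327873. There, 5921 A-preceded positions were marked in 2 libraries, 496 in 3, 60 in 4 and 13 in 5. The 6 sequences printed above are of the last kind. Repeated marks were not counted by set of libraries, for these 6 or for the others. Naked DNA replicates 2 and 3 lay in 1 set, as did the 3 cell libraries that marked the RNF150 position. Repeated marks are therefore not shown to be independent.

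The A-preceded share was also read on either side of the minimum score, pooled over libraries and with no test. At a score of 30, the lowest inside the limit, 38.7% of 7211 known sites were preceded by A, and at 27, the nearest score below the limit that occurs, 36.5% of 10189 were. At scores of 41 and 42 the share was 42.1%.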

How the data were processed

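The deposited site lists of 27 O6-MeG-seq libraries were used. Each site has a deposited score, a whole number from 0 to 42 per site and not a read count. Per the submitters' processing notes, Trimmomatic, cutadapt, Bowtie2 2.3.5.1, GATK 4.2.0.0, SAMtools 1.12 and bedtools 2.29.2 were used, with GRCh38. No genome was used here. Neighbouring bases came from the solvent-control sites (34184609 positions, any score), from naked DNA sites where solvent libraries were compared, or from RefSeq promoter windows of GRCh38.p14. Sites on autosomes with a score of 30 or more each counted 1 time. The members, contexts and lists were chosen with earlier results of these data known. Exact two-sided permutation tests on means over libraries were used and were tested on simulated data; labels were exchanged within the other factors, except between TMZ cells and naked DNA, where they were exchanged freely over the 15 libraries whatever the genotype and number of exposures, and p-values were adjusted with the Benjamini-Hochberg method. The text names all 4 trinucleotides with A before G, and 6 of the 13 promoter positions tied at the most TMZ libraries (5), taken by number of naked DNA libraries, then chromosome and position, at most 1 per gene. Promoter rate ratios, genes, strands and the base 2 upstream were added after the data were seen. Alternatives were the score minimum, the reference, the strand of reference sites, each replicate number left out of every group, 1 solvent library left out and, as a block, the replicate number or the set of libraries (the set added after the data were seen). Replicate numbers were checked from deviations of site density in 1 Mb bins. Here 4 of 6 MGMT and WT pairs, 2 of 6 pairs of 3 and 1 exposures and 6 of 12 TMZ and solvent pairs correlated above 0.1. The main tests therefore did not pair libraries by number. Tallies of same-numbered pairs, solvent subtraction, the replicate block and the tests of a difference in effect rest on the numbers and carry that limit. Promoters of chromosome 8 were not analysed here, so promoter values cover 21 autosomes.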

Additional observations from a re-analysis of the deposited data

Results flagged for a closer look

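In 36 groups of 4 to 10 libraries tested for a library far from the others, of which chance flags about 1 in 20, 2 results stood out. Among the 6 WT libraries under TMZ, replicate 1 after 1 exposure had an A-preceded share of 26.9% with the naked DNA marks as reference, above the median of 25.3%. Among the 6 solvent controls of MGMT cells, replicate 1 after 1 exposure had a log2 ratio of -0.26 for the promoter rate after A over that after G, against a median of 0.08. This is the library whose G share was above that of its TMZ partner, and whether its label is at fault was not tested. Of 5 direct tests of a difference in effect between genotypes or numbers of exposures, none passed, with adjusted exact permutation p-values of 0.5 to 0.975.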

How the results depend on the processing

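Of 92 comparisons with an alternative setting, 41 kept their direction and side of the threshold (unadjusted exact permutation p for single shares, adjusted p for counts of contexts), 20 lost a call, 27 counts of called contexts moved and 4 reversed. The 20 and the 27 include settings in which no call was possible, such as leaving out a replicate number for genotype or exposures. A further 40 comparisons concern counts of called contexts that were 0 and stayed 0, which have no direction. A call of a single share means here an unadjusted exact permutation p of 0.05 or less. By the adjusted p used above, MGMT minus WT (0.072) was no call in the main setting. Nor was TMZ minus solvent with the naked DNA marks as reference (0.0529). TMZ cells minus naked DNA turned to 1.119 points in promoters, and was -2.29 to -0.396 with replicate numbers left out. MGMT minus WT lost its call with reference sites scoring 30 or more (-1.47, exact p = 0.055), opposite-strand reference sites (-1.41), MGMT solvent controls only (-1.29), other replicate numbers (-1.53), sites in 1 library only (-1.50), naked DNA as reference (-0.208) and solvent subtraction (-0.817). With the replicate number as a block it was -1.47 (exact p = 0.0625), and with the set as a block -1.72 (exact p = 0.0625). Leaving out replicate numbers gave -1.77 to -1.27, where the smallest possible p was 0.0556 and no call was possible. For 3 minus 1 exposures promoters gave 0.862, naked DNA as reference -0.499 and solvent subtraction -0.434, the set as a block 2.61 (exact p = 0.0556), and leaving out replicates 2.02 to 2.80, where the smallest possible p was 0.0556. TMZ minus solvent was 12.2 with opposite-strand reference sites, 8.35 with other replicate numbers, 1.89 with no minimum score, 0.464 with reference sites scoring 30 or more, -0.770 on the same strand and 0.468 without the MGMT control that stood apart; leaving out replicates gave 0.139 to 0.862, the lowest without replicate 1. In promoters it was 4.19 to 5.78. The replicate block changed no other call of a single share, but it does not block the sets, which cross replicate numbers. With the set as a block the unadjusted calls of TMZ against solvent were kept. The called A-preceded contexts, 1 between genotypes and 2 between exposures, became 0 under all alternatives, both blocks included, except that 1 remained between genotypes with reference sites scoring 30 or more; leaving out a replicate number could not have kept a call. The cause of these changes was not tested. Known neighbours cover 1.52% to 1.92% of G sites per TMZ library.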
